A study of Mus musculus with 8 samples.

Results

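Chromatin accessibility at the promoters of cytosolic ribosomal protein genes was examined by ATAC-seq in alveolar macrophages (AMs), the resident macrophages of the airspaces. The genes were taken by name from the GENCODE M21 annotation of mm10: autosomal protein-coding symbols that begin with Rpl, Rps or Rplp, followed by a number and at most 1 letter and 1 digit. This gave 78 of 20807 autosomal protein-coding genes. A peak belonged to a gene when its summit lay within 1 kb of an annotated transcription start, and peaks of different libraries that shared a base were merged. The result was 81 promoter regions at 75 genes, out of 82424 regions in the whole data set.

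All 8 libraries came from AMs sorted from bronchoalveolar lavage of adult mice on the C57BL/6J background. In its text and main figure the study describes them as mature AMs, which it defines as CD11b-negative and SiglecF-positive. Some of its supplementary legends name immature AMs for the knockout instead. The 4 WT libraries (replicates 1_2, 1_3, 3 and 4) were from CD11cCre- Rxrabfl/fl animals and the 4 KO libraries (replicates 1_2, 1_3, 2 and 3) from CD11cCre+ Rxrabfl/fl animals, so the floxed Rxra and Rxrb alleles were present in both genotypes. Cre was driven by the promoter of CD11c, which is active in AMs and in other CD11c+ cells. The sources used here do not say whether replicates 1_2 and 1_3 share an animal, and p-values measure only the spread between these libraries.

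The lists held 60363 to 72484 peaks per library. Of 13 annotated AM marker genes, 10 had a promoter peak in all 8 libraries, while Chil3 and Krt79 had none and Ear1 had one in 1 library. None of 4 T cell and none of 4 B cell markers had a promoter peak. Among markers of other cell types, S100a8 (neutrophil, mean strength percentile 88.4), Ly6c2 (monocyte), and Epcam and Cdh1 (epithelium) had one in all 8 libraries. The study also counts Cdh1 among the core genes of AMs. Col1a1 (fibroblast) had one in 7 libraries, Ccr2 (monocyte) in 2 and Kdr (endothelium) in 1, and the other 9 markers had none. The part of other cell types in the values below was not tested. Within Rxra, 1 of 16 regions had a peak in all 4 WT libraries and in no KO library. Within Rxrb, none of 2 regions did.

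Ribosomal proteins form, with ribosomal RNA, the large (60S) and small (40S) subunits of the ribosome, and are needed in balanced amounts by every growing cell. Their mRNAs typically begin with a cytosine inside an uninterrupted run of pyrimidines, the terminal oligopyrimidine (TOP) motif, through which mTOR signaling and LARP1 control translation. Their promoters are compact, mostly lack a canonical TATA box, and are known to be bound by factors such as GABP and YY1. Because they are active in nearly all cells, these genes often serve as references, and Rplp0 was one of the study's own qPCR reference genes.

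RefSeq start sequences of 6 of these genes are shown because they span the strongest and the weakest promoter of the set and a paralog with no peak. Also included is Rpl22, the gene called different between the genotypes below, a call that depended on the processing. Each runs 5′ to 3′ on the sense strand of GRCm38 (mm10) from 60 bases before the RefSeq start to 19 bases after it, and capitals mark the longest pyrimidine run within 10 bases of the start.
Rpl15: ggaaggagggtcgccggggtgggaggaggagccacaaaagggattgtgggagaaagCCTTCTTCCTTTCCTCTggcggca
Rpl4: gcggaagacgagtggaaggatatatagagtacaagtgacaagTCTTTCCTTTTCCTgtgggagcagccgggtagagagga
Rps6: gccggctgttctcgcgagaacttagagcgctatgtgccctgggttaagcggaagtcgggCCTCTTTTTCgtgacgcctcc
Rplp0: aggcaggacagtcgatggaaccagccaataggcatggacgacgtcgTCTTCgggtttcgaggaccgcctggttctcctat
Rpl22: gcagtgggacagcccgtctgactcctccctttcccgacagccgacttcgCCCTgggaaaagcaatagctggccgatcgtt
Rpl3l: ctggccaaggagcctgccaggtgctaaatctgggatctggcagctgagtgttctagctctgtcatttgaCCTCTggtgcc
The windows lie at chr14:18270967-18271046 (Rpl15, minus strand), chr9:64173327-64173406 (Rpl4, plus), chr4:86857348-86857427 (Rps6, minus), chr5:115559407-115559486 (Rplp0, plus), chr4:152325666-152325745 (Rpl22, plus) and chr17:24727766-24727845 (Rpl3l, plus). The pyrimidine run was 17 bases long in Rpl15, 14 in Rpl4 and 10 in Rps6, but 5 in Rplp0 and Rpl3l and 4 in Rpl22. Only the runs of Rpl15 and Rps6 include the start base. RefSeq and GENCODE starts of a gene can differ. For Rps6 the RefSeq start is at position 86857367 and the GENCODE start at 86857412.

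The RefSeq promoter table held 58 of the 78 genes, 55 of them with an open promoter, and these were set beside 8878 protein-coding genes open within 1 kb of a start in all 8 libraries. A pyrimidine run of at least 8 bases near the start was present in 27 of 55 ribosomal protein genes (49.1%) and in 13.4% of all genes. Such a run need not include the start base, as a TOP motif does. The longest run, of any length, covered the start base in 17 of 55 (30.9%) and in 10.6% of all genes. The median longest run was 7 bases against 4, and the longest was 21 bases, in Rpl7a. The start base itself was C in 21 of 55 (38.2%) against 14.6% of all genes. From 250 bases before the start to 50 after it, on either strand, the ETS/GABP letters CCGGAAG were found in 38.2% of these promoters and 20.2% of all, and the YY1 letters AAGATGG in 16.4% and 7.56%. The promoters of Rpl15, Rps6 and Rps21 hold the first motif, and those of Rps15a, Rps27 and Rpl7l1 the second. Rps7 and Rps26 hold both. The SP letters GGGCGG (61.8% against 67.8%), the NRF1 letters GCGCATGC (3.64% against 5.99%), the E-box CACGTG (9.09% against 10.8%) and TATAAA (7.27% against 6.31%) were present at shares closer to those of all genes. A DR1 element, the half-site AGGTCA repeated after 1 base with at most 2 mismatches and the form RXR heterodimers are known to bind, was found in 1 of 55 promoters (1.82%) and in 2.75% of all. These letter matches describe sequence and were not tested.

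**Figure D1:**
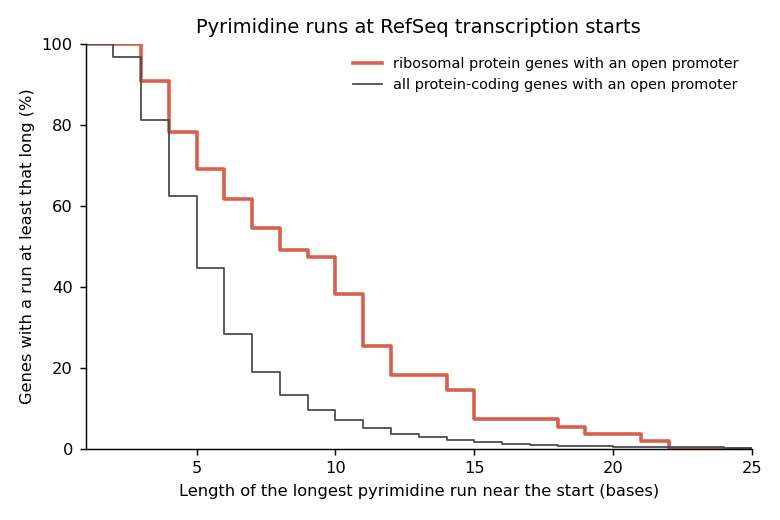
Share of genes (%) whose longest pyrimidine run near the RefSeq start is at least as long as the value on the x axis (bases), for 55 ribosomal protein genes (red) and 8878 protein-coding genes with an open promoter (grey). At 10 bases the red line stands at 38.2% and the grey line at 6.99%.

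Nearly all of these promoters were open in every library. Of the 81 regions, 78 had a peak in all 8 libraries (96.3%), compared with 77.9% of the 15425 autosomal protein-coding promoter regions and 57.6% of all regions. The share was 92.3% for the mitochondrial ribosome genes and 87.1% to 100% over the other gene lists described below. The other 3 of the 81 regions were second regions beside a stronger one of the same gene. One lies 971 bp downstream of a start of Rpl35 and had a peak in 7 libraries, all but WT 1_2. One lies 582 bp upstream of Rpl29, with 25, 26 and 19 tags in WT 1_3, KO 1_2 and KO 2. One lies 252 bp inside Rps9, in KO 1_3 alone. None was present throughout one genotype (4 of 4 libraries) and absent from the other, a pattern seen at 1.1% of the regions that at least 2 libraries share.

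Only 3 genes lacked a promoter peak in every library, and all are paralogs whose proteins replace the common form in particular tissues. Rpl3l is known from heart and skeletal muscle, and Rpl10l and Rpl39l from testis. The peak lists give no value for a region without a peak, so for these genes it is only known that the threshold was not reached. The other 3 paralogs had a peak in all 8 libraries. Rpl22l1 had 237 to 367 tags and a mean strength percentile of 96.7, above its partner Rpl22 at 93.3. For Rps27l and Rps27 the percentiles were 89.5 and 92.0. Rpl7l1 stood at 61.0, below Rpl7 at 83.8, and Rpl3, the partner of Rpl3l, at 79.5.

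Strength was read in 2 ways. The strength percentile ranks a peak's −log10 p-value within its own library's list, where 100 is the strongest. The number of tags at the summit, meaning transposase cuts extended to 200 bp that overlap it, was worked back from the deposited fold and p-value. The 78 regions present in all libraries had a median of 143 tags (interquartile range 90.7 to 224.5) and a median percentile of 84.6 (71.2 to 93.0). The corresponding medians were 118 tags and 78.5 for 12012 protein-coding promoters and 68.4 tags and 62.0 for all 47498 regions tested. Percentile 90 or more was reached by 28 of the 78 regions, and 2 fell below 50, both at Rpl4.

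By subunit, the 29 regions of 40S genes had a median of 154 tags and percentile 86.2, and the 43 regions of 60S genes 133 tags and 81.1, with interquartile ranges that overlap widely (113 to 222 and 79.4 to 219.6 tags). The 3 genes of the ribosomal stalk, the flexible arm that recruits elongation factors, ranged from 121 tags for Rplp1 to 296 for Rplp0, with Rplp2 at 160. The 5 regions of lowest percentile belong to the Rpl genes Rpl4 (2 regions), Rpl19, Rpl36 and Rpl23.

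Rpl15, a 60S protein, had the strongest promoter. Its region, chr14:18270837-18271537, has the opposite-strand start of Nkiras1 within 1 kb of its summit, so the signal cannot be divided between these genes. The summit held 540, 622, 567 and 457 tags in WT 1_2, 1_3, 3 and 4, and 547, 523, 492 and 459 in KO 1_2, 1_3, 2 and 3. Its percentile was 99.72 or higher in each library. By mean percentile, the next 3 were Rpl34 (mean 379 tags, percentile 99.2), Rps21 (375 tags, 98.6) and Rpl37 (342.5 tags, 98.5). Each of these 3 had at least 301 tags in every library.

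Rpl4, which encodes a 60S protein that lines the exit tunnel for new peptides, was the weakest. Its 2 regions both lie within 1 kb of its starts and of those of the opposite-strand gene Zwilch. The region over the Rpl4 start, chr9:64173279-64173781, held 24, 37, 26 and 28 tags in the WT libraries and 22, 27, 31 and 16 in the KO libraries, in the replicate order above. The upstream region, 511 bp from the start, held 27 to 40 tags. Their mean percentiles were 32.1 and 45.2. By percentile, the next were Rpl19 (52.4 tags, 52.2), Rpl36 (81.6 tags, 53.1) and Rpl23 (47.8 tags, 56.3). Long pyrimidine runs near the RefSeq start are thus found at both ends of the order, 17 bases in Rpl15 and 14 in Rpl4. The Rpl15 run includes the start base, and the Rpl4 run ends 5 bases before it.

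Of the genes with a known role outside translation, Rpl5 and Rpl11 form with 5S rRNA a complex that binds the p53 regulator MDM2, and stood at percentiles 71.4 and 89.1. Rps6, the 40S substrate of S6 kinase, stood at 94.3 with 184 to 270 tags, and Rps19, a gene mutated in Diamond-Blackfan anemia, at 96.4 with 264 to 353 tags. Rplp0 stood at 97.3 with 270 to 317 tags, the WT and KO libraries overlapping.

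**Figure D2:**
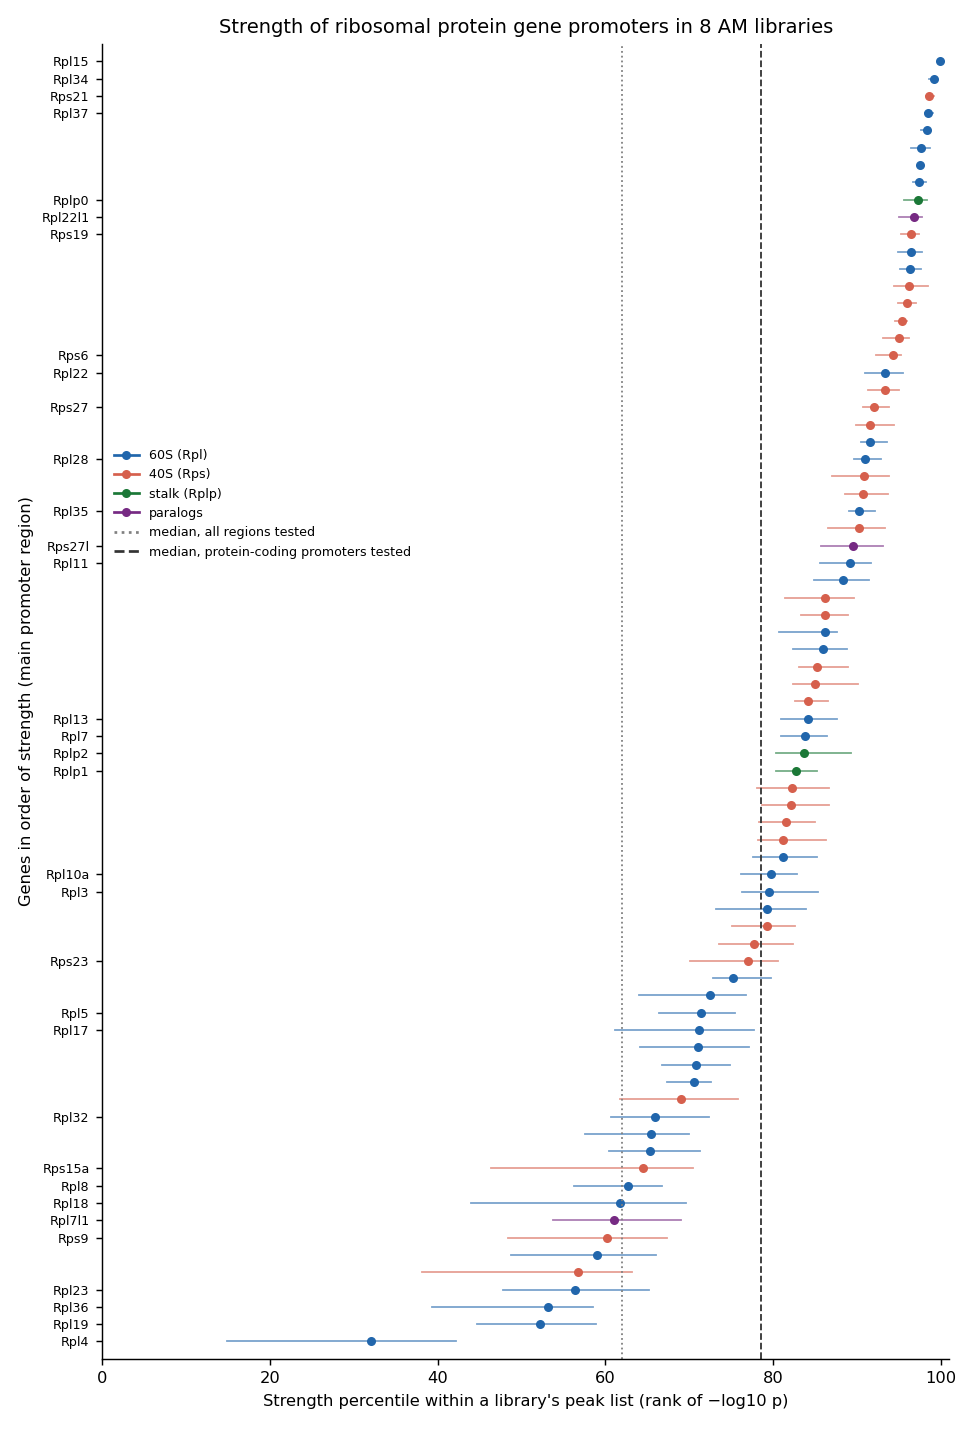
Strength percentile of the main promoter region of 75 genes, ordered by the mean over 8 libraries (points), with the lowest and highest library (lines). For the 5 genes with several regions, the main one is that present in the most libraries and, among those, nearest to a start. Some of the genes described in the text are labelled. Dotted and dashed lines mark the medians of all regions tested (62.0) and of protein-coding promoters (78.5). Rpl15 is at the top with 99.85 and Rpl4 at the bottom with 32.1.

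The summit lay close to the start in most genes. Where a gene had several regions, the main one was that present in the most libraries and, among those, nearest to a start. In 58 of 75 genes (77.3%) the summit of the main region, as the median over libraries, was within 100 bp of the nearest annotated start. This also held in 55 of the 70 genes with a single region, where no such choice was made. Of the 75 main regions, the summit was upstream of the start in 52, and the median position was 29 bp upstream. Libraries placed it with a median SD of 9.86 bp. The start of a gene on the other strand lay within 1 kb of the summit of the main region in 21 of 75 genes, Rpl15 and Rpl4 among them. Small nucleolar RNAs, which guide modification of ribosomal RNA and are cut out of introns, are hosted by 27 of the 78 genes, 53 in all, with 5 in Rpl4. Within 100 bp of the summit, CCGGAAG was present at 29.5% of the 78 regions, 15.2% of protein-coding promoters and 5.86% of all regions. AAGATGG was present at 14.1%, 4.90% and 3.60%. The shares were not particular to these genes. In the 84 tested regions of mitochondrial ribosome genes, described below, CCGGAAG was present at 34.5% and AAGATGG at 15.5%. DR1 was present at 3 of 78 (3.85%), against 1.87% and 4.09%. The regions were CpG rich, with a median observed to expected CpG ratio of 0.86, against 0.77 for protein-coding promoters and 0.27 for all regions.

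Peaks were also wide. The summed width had a median of 674 bp (571 to 790) compared with 579 bp for protein-coding promoters and 418 bp for all regions. The widest were Rpl7 (1079 ± 131 bp, SD, n = 8), Rpl10a (1063 ± 126), Rpl5 (1026 ± 97.8), Rpl7l1 (1022 ± 32.6) and Rps23 (1015 ± 23.4). At the other end were Rpl36 (376 ± 81.9 bp), Rpl8 (404 ± 129) and Rpl4 over its start (411 ± 72.1). Width and strength did not share an order at the extremes: Rpl7l1 was among the widest at percentile 61.0, and Rpl15, the strongest, measured 640 ± 26.9 bp. In WT 1_3, the library with the highest background (2.26 tags, against 1.12 to 1.86 in the others), the median width was 790 bp, compared with 615 to 675 bp in the other 7.

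The spread between libraries was measured as the SD of log2 strength within a genotype, pooled over both genotypes, after each library was centred on its median over all regions tested. Over the 78 regions its median was 0.14 on the log2 scale, which is a factor of 1.10, compared with 0.15 for protein-coding promoters and 0.18 for all regions. Counting error alone would give 0.12, 0.13 and 0.18 at the same numbers of tags, so the median ratio of the observed to the counting spread was 1.13, 1.08 and 1.04. In 28 of the 78 regions (35.9%) the spread was below counting error, and over all regions this share was 45.8%. The lower spread of these promoters on the log2 scale went with more tags, and the median ratio to counting error was not lower than over all regions.

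The steadiest promoters were Rpl28 (0.06), Rpl35 (0.06), Rpl15 (0.06), Rpl7 (0.06) and Rpl13 (0.07). Rpl28, a 60S protein, had 192, 240, 193 and 168 tags in WT and 190, 203, 165 and 166 in KO, and relative to the library medians this is 1.42 ± 0.05 in WT and 1.51 ± 0.06 in KO (log2, SD, n = 4). Among the least steady were Rpl4 over its start (0.30), Rps9 (0.28), Rpl17 (0.28) and Rpl32 (0.25). For Rpl4 counting error gives 0.29, close to what was observed. Rps9, a 40S gene, had 63, 98, 73 and 89 tags in WT and 96, 64, 80 and 75 in KO, a spread of 0.28 where counting error gives 0.16. Rpl17, a 60S gene, was lowest in WT 4 with 60 tags and in KO 3 with 61, against 84 to 113 in the other libraries. Rplp0, the reference gene, had a spread of 0.17 at a counting error of 0.08.

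**Figure D3:**
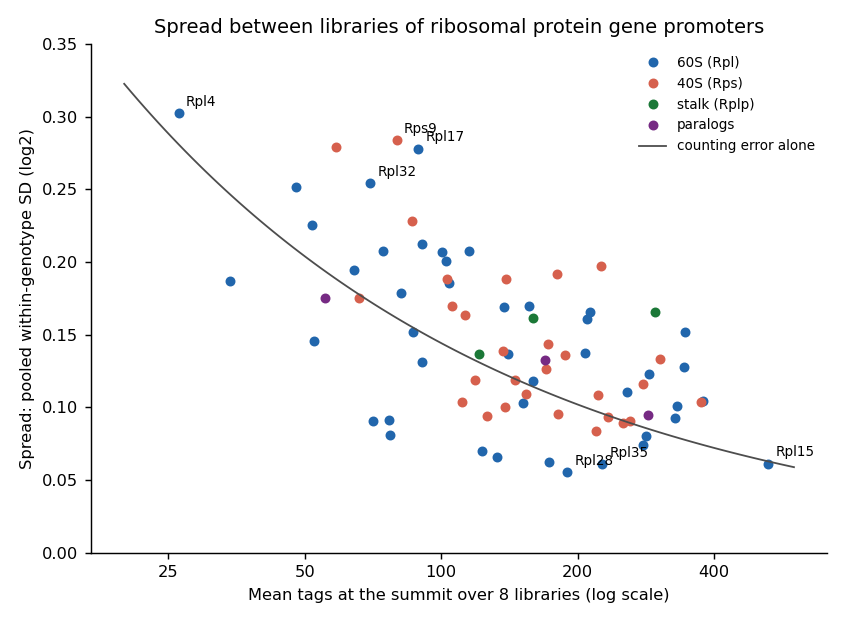
Spread between libraries (pooled within-genotype SD, log2) against mean tags at the summit (log axis) for 78 promoter regions, coloured by subunit. The line is the SD that counting error alone gives. Rpl15 lies next to the line with 526 tags, while Rps9 and Rpl17 lie above it.

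Loss of RXRα and RXRβ was then compared with WT. Rpl22 was the only 1 of the 78 regions with a difference in strength at an adjusted p below 0.05 (limma, Benjamini-Hochberg over 47498 regions), and it was higher in KO. Over all regions tested, 5.81% were higher and 7.03% lower in KO, and over protein-coding promoters 6.79% and 2.41%. Of the 6096 regions called, 45.3% were higher in KO, a share that fell to 35.1% when libraries were scaled by total tags and to 20.9% when they were centred on protein-coding promoters. At an unadjusted p below 0.05 there were 15 of 78 regions (19.2%), against 26.2% of all regions.

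Rpl22, a 60S RNA-binding protein that is dispensable in many cells, had 219, 213, 208 and 171 tags in WT and 233, 218, 216 and 179 in KO at chr4:152325509-152326412. Relative to the library medians these are 1.64, 1.22, 1.48 and 1.50 in WT and 1.77, 1.69, 1.84 and 1.64 in KO on the log2 scale. The lowest KO library and the highest WT library lie at nearly the same value, and WT 1_3 was lowest. The difference was 0.27 with an SE of 0.09 and an adjusted p of 0.035. The call was lost without WT 1_3 (difference 0.20, adjusted p = 0.15), without WT 3, KO 1_2, KO 1_3 or KO 2 (0.083, 0.107, 0.070 and 0.090), with replicates 1_2 and 1_3 averaged (0.058), and under total-tag scaling (0.052), quantile normalisation (0.064), promoter centring (0.16) and the authors' fold in place of tags (0.27). Without WT 4, 5 of the 78 regions passed, all higher in KO, beside 13.2% of all regions. Without WT 3, 2 passed, beside 9.39%. With a block on replicate number, which was not taken to pair the libraries, 8 of the 78 passed, beside 14.5%, all higher in KO. The paralog Rpl22l1 differed by 0.08 with an SE of 0.08 (adjusted p = 0.58).

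At 4 other regions the fitted difference was larger than at Rpl22 but had a larger SE and did not pass. For Rps15a the difference was 0.34 (SE 0.13, adjusted p = 0.072), for the main region of Rpl18 0.32 (SE 0.11, 0.053), for Rpl8 0.32 (SE 0.13, 0.092), and for Rpl7l1 0.30 (SE 0.15, 0.18). Rpl18 encodes a 60S protein and has 3 regions. The main one, nearest to a start, is the weakest of them (percentile 61.7, against 86.5 and 85.9) and had 84, 124, 132 and 107 tags in WT and 121, 126, 114 and 114 in KO, and WT 1_2 was lowest. The other 2 lie near a distal start and differed by -0.05 and -0.18 (adjusted p = 0.77 and 0.21). A start of the opposite-strand gene Sphk2 lies within 1 kb of the summits of the main region and of the region that differed by -0.05. Rps15a had 85, 98, 102 and 50 tags in WT and 88, 97, 91 and 78 in KO, so that the low value in WT 4 stands apart. Rplp0, at 2.01 ± 0.21 in WT and 2.23 ± 0.11 in KO, differed by 0.22 (SE 0.09, adjusted p = 0.094). Rps6 differed by 0.18 (SE 0.09, 0.16), Rpl15 by 0.11 (SE 0.07, 0.35), Rpl5 by 0.13 (SE 0.12, 0.50), Rpl11 by 0.07 (SE 0.10, 0.71) and Rps19 by -0.01 (SE 0.08, 0.95).

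With the median SE of 0.10, the fitted difference was smaller than 1.25-fold in 77 of 78 regions (98.7%), compared with 90.2% of protein-coding promoters and 79.7% of all regions. The exception was Rps15a. The groups did not overlap, with every KO library above every WT library, at Rpl7, Rpl8, Rpl13, Rpl14, Rpl15 and Rpl22, which is 6 of 78 regions beside 8.26% of all regions. None of the 78 regions had every KO library below every WT library, beside 7.91% of all regions.

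Most differences were small and positive. The median over the 78 regions was 0.12 (interquartile range 0.04 to 0.18), and 65 of 78 (83.3%) were above 0. Over protein-coding promoters the median was 0.09 with 73.6% above 0, and over all regions 0.04 with 57.6% above 0. Centred on the protein-coding promoters instead, the median of the 78 fell to 0.04 and 45 of 78 were above 0, and in all other scalings it lay between 0.08 and 0.12. By library, the median strength was 1.03, 1.01, 1.08 and 1.13 in WT and 1.18, 1.12, 1.17 and 1.11 in KO, against 0.74, 0.72, 0.75 and 0.77 and 0.84, 0.81, 0.87 and 0.81 for protein-coding promoters. WT 4 thus lies within the KO range for the ribosomal protein genes. The median strength percentile was 84.6 ± 0.26 in WT and 84.6 ± 0.67 in KO (SD, n = 4).

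**Figure D4:**
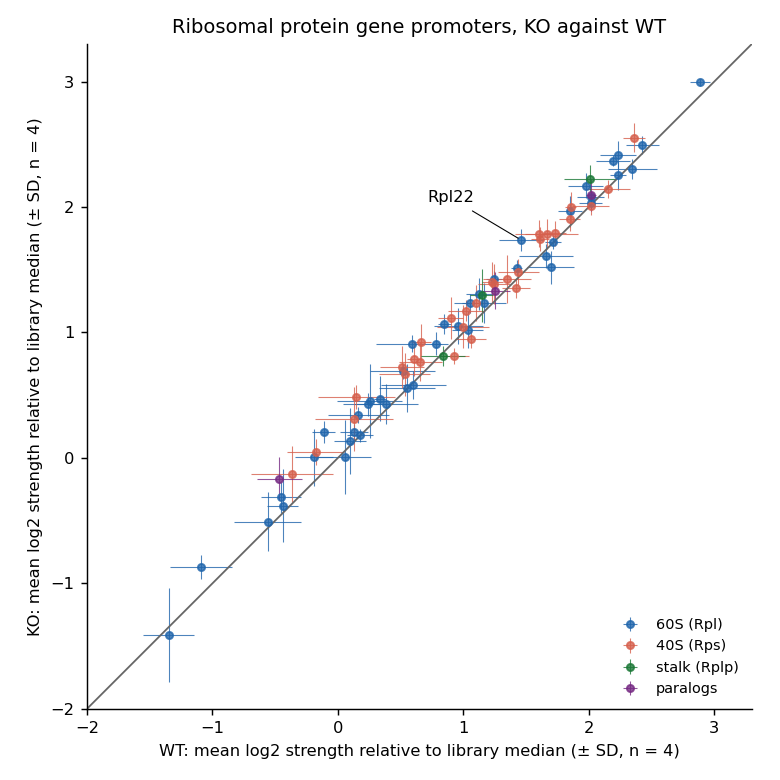
Mean log2 strength relative to the library median in KO (y axis) against WT (x axis) for 78 promoter regions, with SD bars (n = 4 libraries each) and the line of equality. Points follow the line, with 65 of 78 above it. Rpl22 is labelled.

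None of these regions passed the test for width. The fit on log2 summed width called 0 of the 78 regions, beside 0.0968% of all regions (46 of 47498, adjusted p below 0.05, limma), and 3 of 78 (3.85%) had an unadjusted p below 0.05, beside 9.08% of all regions and 6.49% of protein-coding promoters. The median width difference was -0.01 on the log2 scale. Per library, the median width was 650, 790, 663 and 622.5 bp in WT and 630.5, 650, 675 and 615 bp in KO, so the groups overlap.

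**Figure D5:**
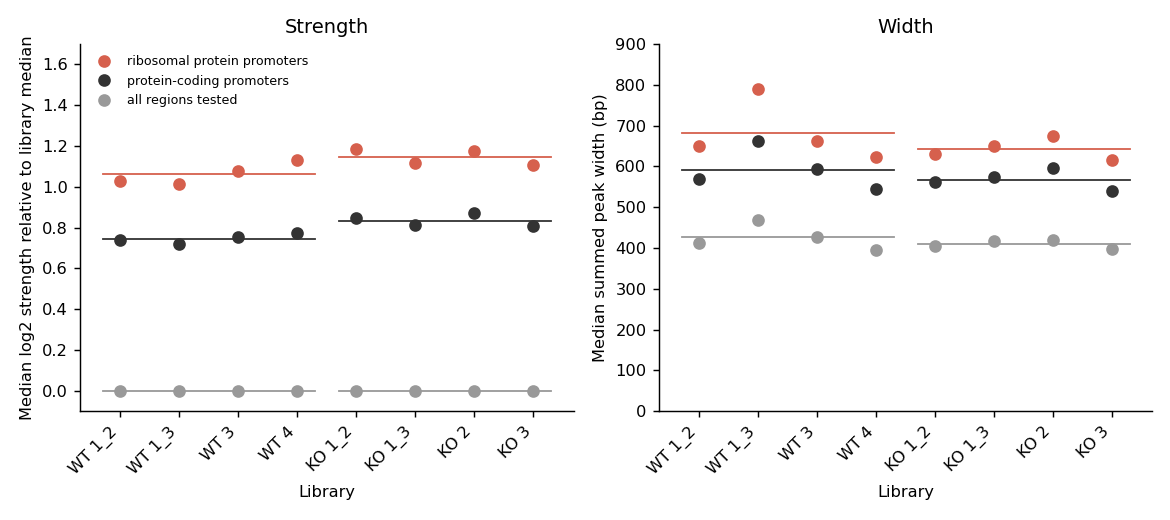
Median log2 strength relative to the library median (left) and median summed peak width in bp (right) for each of the 8 libraries, for 78 ribosomal protein promoters (red), 12012 protein-coding promoters (black) and 47498 regions (grey). Horizontal lines are means of 4 libraries. The red points lie above the black in every library, from 1.01 to 1.18 on the left.

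Other genes of translation were read from the same fit. The 5 cytosolic ribosomal protein genes that the naming rule does not take (Rpsa, Fau, Rack1 and Rpl36al among them) had 6 regions in all 8 libraries with a median of 110 tags. Among them Rpsa, which encodes a 40S protein also known as the laminin receptor, was higher in KO by 0.37 (SE 0.10, adjusted p = 0.0069), with 162, 162, 142 and 127 tags in WT and 196, 159, 171 and 139 in KO. The proteins of the mitochondrial ribosome, encoded by 78 nuclear genes, had 84 regions tested with a median of 113 tags, width 579 bp, spread 0.15 and difference 0.14. There, 4 of 84 were higher in KO and 0 lower: Mrpl14 (0.57), Mrpl39 (0.33), Mrpl53 (0.47) and Mrps6 (0.36). The called Mrpl14 region had 28 to 48 tags, and another Mrpl14 region differed by 0.08 (adjusted p = 0.82).

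Among 19 other genes with TOP mRNAs, mostly translation factors, 22 regions were tested, with a median of 177 tags and a median difference of 0.19. In KO, 2 were higher, Eif4b (0.32, SE 0.09, adjusted p = 0.018) and Npm1 (0.30, SE 0.10, 0.048), and 0 lower. The other Npm1 region differed by 0.25 (adjusted p = 0.39). Among 20 genes that control ribosomal protein synthesis, such as Mtor, Larp1 and Gabpa, 27 regions were tested and 1 was higher, Rps6kb1, an S6 kinase (0.32, SE 0.11, adjusted p = 0.037). How the calls in these other lists depend on the processing is not reported here. The share called was 1.28% for the ribosomal protein genes, 4.76% for the mitochondrial ribosome, 9.09% for the TOP genes and 3.70% for the control list, beside 12.8% of all regions and 9.21% of protein-coding promoters, and these shares were not compared by a test.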

How the data were processed

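ATAC-seq peak lists of 4 WT and 4 KO libraries were used, with groups taken from the sample titles. The authors used Cutadapt for trimming and Bowtie2 for alignment to mm10, marked duplicates with Picard, kept proper pairs of mapping quality above 30 with samtools, and called peaks per library with MACS3 on cuts extended to 200 bp at a q-value of 0.05. Each list deposited by the authors holds a score (not used), a fold ratio of summit pileup over background, and −log10 p- and q-values. The lists hold no read counts, so the authors' edgeR test was not fitted. A deeper library reaches the q threshold at a smaller enrichment and extends its peaks further.

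Whole tags at each summit were recovered by solving the caller's Poisson model for the deposited fold and p-value, and the deposited p-values followed from them for 100% of peaks in each list (relative error at most 1e-05). The smallest summit held 6 to 9 tags and the median 40 to 53. Log2(tags + 0.5), and separately log2 summed width, was centred on each library's median over the 47498 regions that all 8 libraries share, and KO minus WT was tested with limma 3.58.1 in R 4.3.3 (trended prior variance, two-sided, Benjamini-Hochberg over all regions). At the ribosomal protein regions only peaks within 1 kb of a start gave values, which left 9 peaks unused. GENCODE M21 basic transcripts gave the starts. Sequences are RefSeq promoters of GRCm38, and all 58 windows found in the table equal the genome. Intervals and spread cover these libraries only, and depth limits weak regions.

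Members and gene lists were chosen with earlier results of these data known. Genes were named by rule: those called, the 5 strongest and 5 weakest, the 5 largest and 5 smallest in spread, the 5 widest and 3 narrowest, those with peaks in some or no libraries, the paralogs with their partners, and Rpl5, Rpl11, Rps6, Rps19 and Rplp0. Rpl7a, Rpl14, Rpl18, Rplp1, Rplp2, Rps7, Rps15a, Rps16 and Rps26, and the genes called in the other lists, were named after their values were seen. Some genes that the rule covers are not reported here. Alternatives were other scalings, filters, pseudocounts, promoter windows, left-out libraries, averaged replicates and a replicate block.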

Additional observations from a re-analysis of the deposited data

Results flagged for a closer look

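In 70 sets of 4 libraries (the members' medians, and the named regions in each genotype), 1 library stood apart from the other 3 in 4 sets, where chance flags about 1 in 20, or 3.5 of 70. All values are log2 strength relative to the library median. Rpl15 was lower in WT 1_3 at 2.77, with the other WT libraries at 2.92 to 2.94. The upstream region of Rpl4 was higher in KO 2 at -0.73, with the other KO libraries at -0.93 to -0.91. Rpl19 was lower in WT 1_2 at -0.70, with the others at -0.40 to -0.35. Rpl7l1 was higher in WT 1_3 at -0.20, with the others at -0.59 to -0.54.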

How the results depend on the processing

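The number of regions called for strength was 0 with total-tag scaling, quantile normalisation, the authors' fold in place of tags, or replicates 1_2 and 1_3 averaged, and 1 under promoter centring. That 1 was not Rpl22 but a region 809 bp downstream of a distal start of Rpl18, lower in KO by a log2 difference of -0.27 (adjusted p = 0.034). Leaving out 1 library gave 0 to 5 calls, all higher in KO: 5 without WT 4 (among them Rpl18, Rpl22, Rplp0 and Rps21), 2 without WT 3 (Rpl18 and Rps15a), and 0 without WT 1_3, KO 1_2, KO 1_3 or KO 2. The cause was not tested. Over all regions tested, 13.2% were called without WT 4, 9.39% without WT 3 and 3.55% with the authors' fold. The other filters, pseudocount, window and transcript sets, of which the 2 transcript sets were chosen after seeing the data, gave 1. The median difference was 0.036 under promoter centring and 0.076 to 0.126 elsewhere, never below 0. The median spread ranged from 0.097 to 0.143. The count of regions called for width, and of regions present in one genotype only, was 0 throughout.

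Deviations from the group means of libraries with the same replicate number correlated by 0.06 (1_2), 0.12 (1_3) and 0.04 (3), so the numbers were not taken to pair them. Of the other genotype, each such library correlated best with its own number. A replicate block, in which WT 4 and KO 2 have no partner, gave 8 calls among the 78 regions, beside 14.5% of all regions. All 8 were higher in KO (among them Rpl18, Rpl22, Rpl37, Rplp0, Rps16 and Rps21). The median difference over the 78 was 0.10, with 0 calls for width. With 26 to 526 mean tags, weak promoters such as Rpl4 allow only large differences to be detected.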
